A study of Mus musculus with 22 samples.

Results

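The citrate cycle enzymes described here are 10 nuclear-encoded genes of mitochondrial metabolism (Cs, Idh2, Idh3a, Idh3b, Ogdh, Sucla2, Suclg1, Suclg2, Mdh2 and Pcx), taken from 19505 genes that the deposited array table names. They were chosen by symbol, with the probe set of highest mean signal over 22 arrays standing for a gene. Each of the 10 had 1 probe set, and all 10 passed the filter on dim genes that left 15545 genes for testing. In metastases of mice given phenformin, the transcripts of both beta subunits of succinate-CoA ligase were higher in the PGC-1alpha line than in the control line. Sucla2, which encodes the ATP-forming beta subunit, differed 1.47-fold, and Suclg2, which encodes the GTP-forming beta subunit, differed 1.43-fold. In mice given PBS the 1 member that passed was Mdh2, mitochondrial malate dehydrogenase, 1.32-fold higher in PGC-1alpha metastases. The Mdh2 call was lost in several alternative fits and without any 1 of 7 arrays. Over all tested genes 21.1% passed under phenformin and 2.93% under PBS, so 2 of 10 members under phenformin is close to the background. No member passed for phenformin against PBS in either line.

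The citrate cycle oxidises acetyl-CoA in the mitochondrial matrix and passes the electrons to the respiratory chain as NADH and reduced flavin. Pyruvate carboxylase (Pcx) refills it with oxaloacetate, citrate synthase (Cs) joins that to acetyl-CoA, and the isocitrate dehydrogenases, the 2-oxoglutarate dehydrogenase complex, succinate-CoA ligase and malate dehydrogenase carry the later steps. PGC-1alpha is a transcriptional coactivator known for driving mitochondrial biogenesis through nuclear receptors such as the estrogen-related receptors and through NRF1, GABP and YY1. Phenformin is a biguanide that inhibits respiratory complex I, the main consumer of the NADH that the cycle makes.

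The arrays measured RNA of lung metastases in mice that had received NMuMG-ErbB2 cells, a mouse mammary epithelial line carrying the ErbB2 oncogene, through the tail vein. There were 6 arrays of PGC-1alpha metastases (NMuMG-ErbB2/PGC-1alpha cells) under phenformin and 6 under PBS, against 5 arrays of control metastases (NMuMG-ErbB2/VC cells) under phenformin and 5 under PBS. Treatment lasted 1 week, the metastases were isolated by laser capture, and 10 ng of RNA was labelled per sample. ErbB2 is shared by all groups, so no group lacks the oncogene. The promoter that drives PGC-1alpha, the number of clones behind each line, the strain and age of the mice and the number of animals behind the arrays are not given in the sources used here. A p-value here thus reflects only sample-to-sample spread, which may be partly technical. Since PGC-1alpha overexpression coincides with the injected line, its effect cannot be told apart from other differences between the lines.

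Array medians lay between 6.55 and 6.64 on the log2 scale and the median signal of negative control probes between 4.61 and 5.05. The number of arrays limits the precision, and genes had a median within-group SD of 0.253. Ppargc1a, the gene of PGC-1alpha, averaged 8.90 ± 0.37 in PGC-1alpha and 7.54 ± 0.60 in control metastases under PBS (log2 signal, SD, n = 6 and 5), where the lines did not overlap (limma adjusted p = 0.0198). Under phenformin it averaged 8.64 ± 0.79 in PGC-1alpha and 8.04 ± 0.39 in control metastases (n = 6 and 5), the lines overlapped, and the difference did not pass (limma adjusted p = 0.166). Erbb2 was higher in the PGC-1alpha line averaged over treatments (log2 difference 0.35, SE 0.11, limma adjusted p = 0.0193), a call lost with a lung marker score (the mean of alveolar and endothelial markers) as a covariate (0.31, adjusted p = 0.157). It was also lost without the 4 arrays of lowest estimated weight (control_phenformin 2 and 3, control_PBS 1 and 5), a choice made after the data were seen (0.28, adjusted p = 0.122). The Ppargc1a call under PBS was lost in the same settings (0.99 and 1.13, adjusted p = 0.252 and 0.127) and without control_PBS 2 or 5 (largest adjusted p 0.0665). Averaged over treatments Ppargc1a was higher in the PGC-1alpha line by 0.98 (limma adjusted p = 0.00321). That call was kept without any single array (largest adjusted p 0.00702) and lost with the lung marker score (0.66, adjusted p = 0.117). Whether the probes of either gene detect the introduced sequence is not known. All 11 epithelial, 9 alveolar type 2 and 6 measured alveolar type 1 markers were above the negative controls in all 22 arrays. The alveolar lists mark normal lung, while the epithelial list does not separate tumour from normal lung epithelium. The mean log2 level of the alveolar type 1 markers was 9.58 to 10.16 and 9.31 to 9.99 in PGC-1alpha metastases under phenformin and under PBS, against 9.80 to 10.20 and 10.06 to 10.20 in control metastases. Signal of normal lung was thus present in every sample, and a change in the share of a cell type and a change in RNA per cell cannot be told apart in such bulk samples.

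The question of the first comparison is which of these enzymes differ with the injected line while the mice received phenformin. Of the 10 members, 2 passed the test (limma, p adjusted after Benjamini-Hochberg over the 15545 genes, threshold 0.05), both higher in PGC-1alpha metastases. In the same comparison 21.1% of all tested genes passed, 10.0% higher and 11.1% lower, so a share of 2 in 10 is close to the background. At an unadjusted p under 0.05 there were 4 members, against 37.1% of all tested genes. Centring each array on its median turned the split over all genes from near even (1560 higher and 1723 lower) to 1112 higher and 2203 lower, and the same 2 members passed. The median log2 difference was 0.11 over the members and 0.00 over all tested genes. A positive difference was found for 9 of 10 members, among them Idh3b at 0.00, and for 7829 of the 15545 tested genes.

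**Figure D1:**
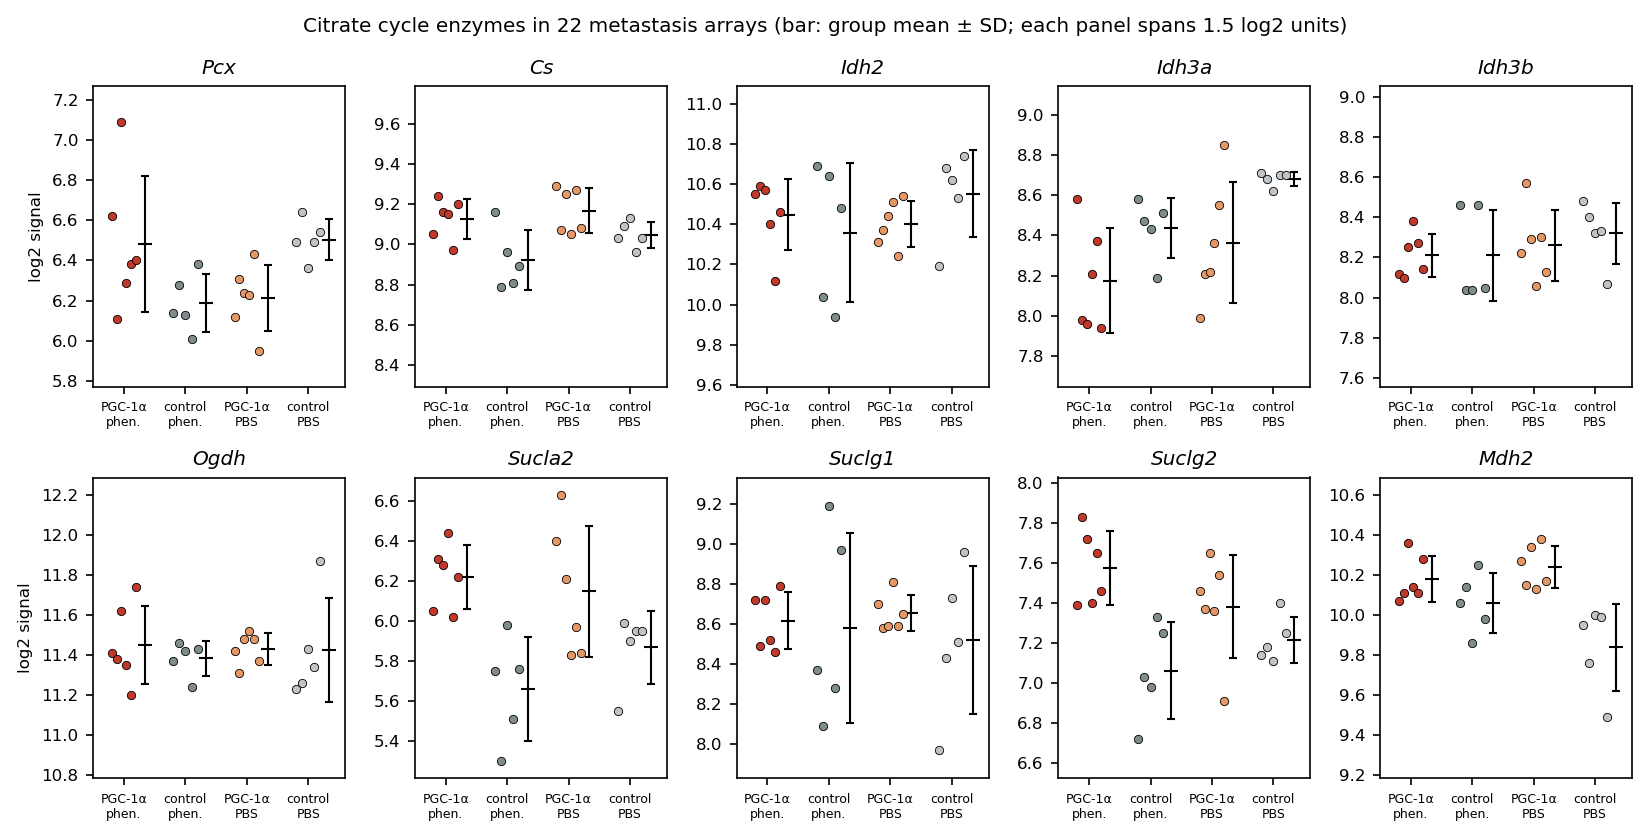
Log2 signal (vertical axes) of the 10 citrate cycle enzymes in each of 22 arrays. Points are arrays, bars are group means with SD, the groups are the PGC-1alpha and control lines under phenformin (left) and under PBS (right), and each panel spans 1.5 log2 units. For Sucla2 and Suclg2 the PGC-1alpha points lie above the control points under phenformin, and for Mdh2 they do so under PBS.

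Entry into the cycle came first. Pcx had log2 signals of 6.11, 6.39 and 7.09 (lowest, median and highest of 6) in PGC-1alpha metastases under phenformin, against 6.14, 6.28, 6.13, 6.01 and 6.38 in control metastases. The groups overlapped, and PGC1a_phenformin 3 stood highest with 7.09. The difference was 0.30 on the log2 scale (SE 0.14, limma adjusted p = 0.114). Cs had 8.97, 9.16 and 9.24 in PGC-1alpha and 9.16, 8.79, 8.96, 8.81 and 8.89 in control metastases. Only control_phenformin 1, at 9.16, reached into the PGC-1alpha range. The Cs difference of 0.21 (SE 0.09, limma adjusted p = 0.102) did not pass, but it did after quantile normalisation of the deposited values again (0.38, adjusted p = 0.014) and after cyclic loess (0.34, adjusted p = 0.0196).

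The isocitrate dehydrogenases oxidise isocitrate to 2-oxoglutarate: Idh2 makes NADPH, and Idh3a and Idh3b encode the catalytic alpha and a beta subunit of the NADH-forming enzyme. Idh2 averaged 10.45 ± 0.17 in PGC-1alpha and 10.36 ± 0.35 in control metastases under phenformin, a log2 difference of 0.09 with a 95% interval from -0.19 to 0.38. Idh3a averaged 8.17 ± 0.26 in PGC-1alpha and 8.44 ± 0.15 in control metastases (difference -0.26, SE 0.14, limma adjusted p = 0.167). It was the only member with a negative difference here. Idh3b averaged 8.21 ± 0.11 in PGC-1alpha and 8.21 ± 0.23 in control metastases, and the interval of its difference ran from -0.24 to 0.24 (SD, n = 6 and 5 throughout).

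Ogdh encodes the first component of the 2-oxoglutarate dehydrogenase complex. Its log2 signals were 11.20, 11.40 and 11.74 (lowest, median and highest) in PGC-1alpha metastases under phenformin, against 11.37, 11.46, 11.42, 11.24 and 11.43 in control metastases. The control arrays lay within the PGC-1alpha range. The difference was 0.07, with a 95% interval from -0.17 to 0.30.

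Succinate-CoA ligase is built from the alpha subunit Suclg1 and 1 of 2 beta subunits. Sucla2 had log2 signals of 6.02, 6.25 and 6.44 (lowest, median and highest) in PGC-1alpha metastases under phenformin, against 5.75, 5.30, 5.98, 5.51 and 5.76 in control metastases. The groups did not overlap, though PGC1a_phenformin 5 at 6.02 and control_phenformin 3 at 5.98 lay close together. The difference was 0.56 (SE 0.15, 95% interval 0.26 to 0.86, limma adjusted p = 0.0116). Suclg2 had 7.39, 7.56 and 7.83 in PGC-1alpha metastases, against 6.72, 7.03, 6.98, 7.33 and 7.25 in control metastases. Here too all 6 PGC-1alpha arrays stood above all 5 control arrays. The difference was 0.52 (SE 0.13, 95% interval 0.24 to 0.79, limma adjusted p = 0.0103). Without the 4 arrays of lowest weight it was 0.48 and did not pass (adjusted p = 0.0539). Over all tested genes, 6.07% showed no overlap with PGC-1alpha higher in this comparison.

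The alpha subunit did not pass. Suclg1 had 8.46, 8.62 and 8.79 in PGC-1alpha metastases under phenformin, against 8.37, 8.09, 9.19, 8.28 and 8.97 in control metastases. The control arrays spread on both sides of the PGC-1alpha range, and the difference of 0.03 had a 95% interval from -0.32 to 0.39. Within arrays, Sucla2 minus Suclg1 averaged -2.40 ± 0.22 in PGC-1alpha and -2.92 ± 0.28 in control metastases under phenformin (log2 difference of signals, of which only the change between lines can be read, SD, n = 6 and 5). That difference of 0.53 passed an exact two-sided permutation test over arrays (p = 0.00866, 0.0346 after Benjamini-Hochberg over 4 such tests), although the lines overlapped, from -2.67 upward in PGC-1alpha and up to -2.62 in control metastases. For Suclg2 minus Suclg1 under phenformin the difference was 0.48 (exact permutation test, adjusted p = 0.165), and under PBS it was 0.14 for Sucla2 and 0.03 for Suclg2 (exact permutation tests, adjusted p = 0.647 and 0.879). These within-array tests were chosen after the values were seen, and they reuse the values of the fit, so they are no separate support for the Sucla2 difference. By mean signal, Sucla2 lay in the second and Suclg1 in the fourth quintile of the tested genes. Over all genes of those quintiles the median difference under phenformin was 0.14 and -0.14. The part of this dependence on signal in the within-array difference was not tested.

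Mdh2 regenerates oxaloacetate from malate. It had 10.07, 10.13 and 10.36 in PGC-1alpha metastases under phenformin, against 10.06, 10.14, 9.86, 10.25 and 9.98 in control metastases. The lines overlapped, and the difference of 0.12 (SE 0.11, limma adjusted p = 0.433) did not pass.

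**Figure D2:**
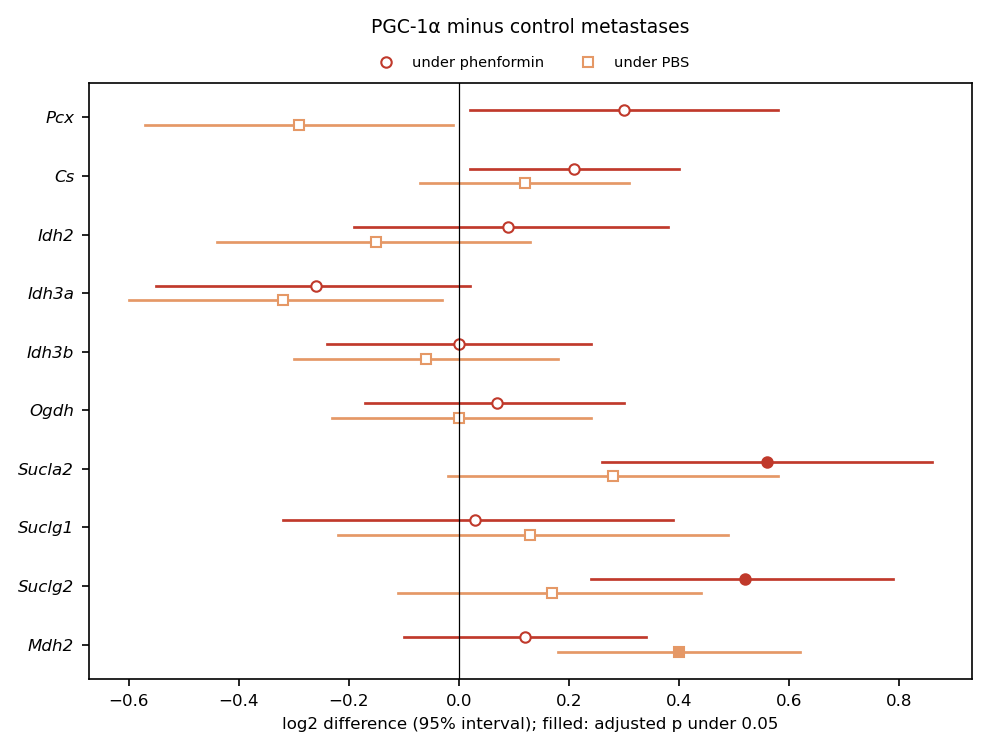
Log2 difference between PGC-1alpha and control metastases (horizontal axis) for each enzyme, under phenformin (circles) and under PBS (squares), with 95% intervals from the fit. Filled symbols mark an adjusted p under 0.05, which Sucla2 and Suclg2 reached under phenformin and Mdh2 under PBS.

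The difference under phenformin varied with signal over all genes. The median log2 difference under phenformin was 0.18 and 0.14 in the lowest and the second quintile of the tested genes by mean signal, and -0.02, -0.14 and -0.13 in the next 3 quintiles. Sucla2, with a mean log2 signal of 5.99 over the 22 arrays, lay in the second quintile, where 15.1% of genes passed as higher, and Suclg2 (7.32) in the middle quintile, where 13% did. The lowest Sucla2 array lay 0.38 log2 units above the median negative control of that array. Under PBS the corresponding medians were 0.02, 0.03, 0.01, -0.01 and -0.03, and Mdh2 (10.09) lay in the highest quintile. The plot of differences against signal shows this slope under phenformin and not under PBS. The part of signal strength in the Sucla2 result was not tested.

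**Figure D3:**
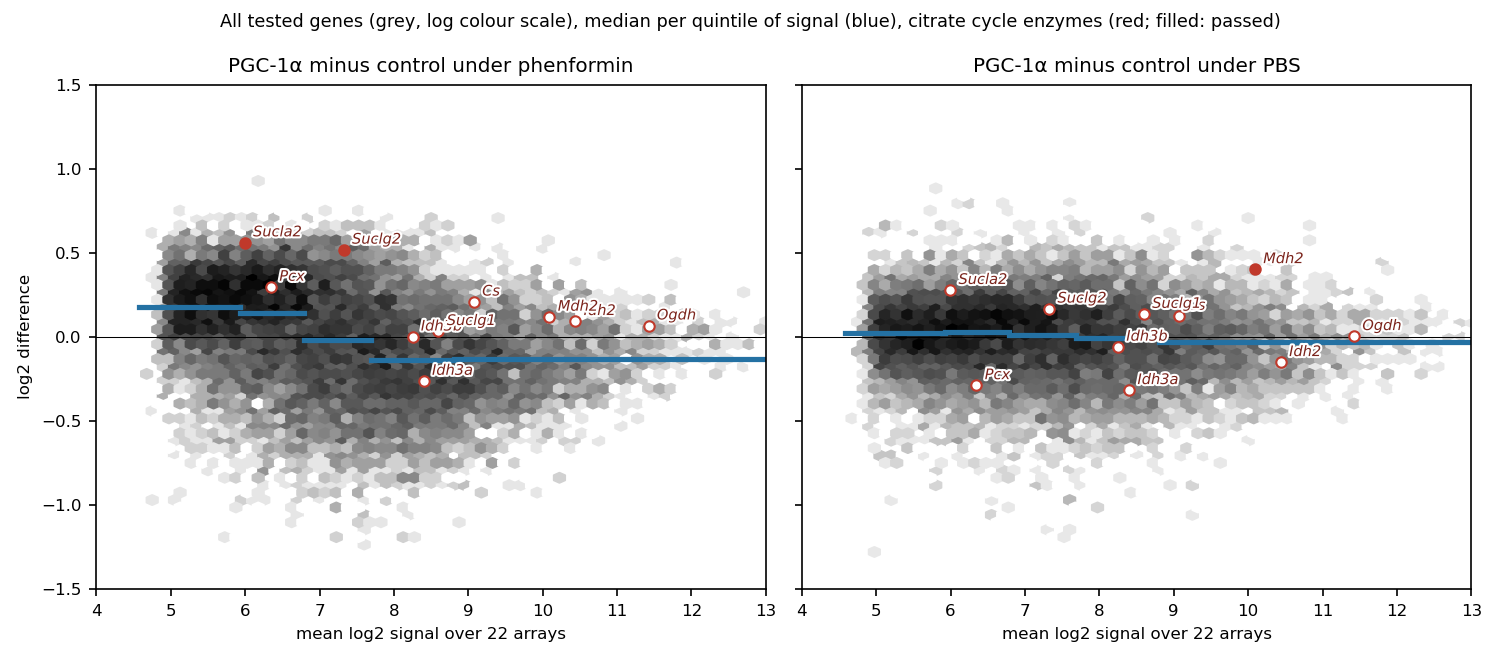
Log2 difference between PGC-1alpha and control metastases (vertical axis) against mean log2 signal over 22 arrays, under phenformin (left) and PBS (right). Grey cells count all tested genes on a log colour scale, blue lines are medians per quintile of signal, and red points are the 10 enzymes, filled where they passed. The blue line falls with signal to -0.13 in the highest quintile under phenformin and stays between -0.03 and 0.03 under PBS.

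Markers of other cells were compared between the lines as well. The mean log2 level of 5 neutrophil markers was 7.37 to 7.92 and 7.41 to 8.55 in PGC-1alpha metastases under phenformin and PBS, against 8.14 to 8.69 and 8.39 to 8.90 in control metastases, and 4 of the 5 passed as lower under each treatment. For 8 endothelial markers the levels were 7.63 to 8.56 and 7.52 to 8.59 in PGC-1alpha metastases, against 8.15 to 8.83 and 8.28 to 9.54 in control metastases. These ranges overlapped, and 0 of 8 passed under either treatment (limma). At an unadjusted p under 0.05 there were 1 under phenformin and 4 under PBS. Averaged over treatments there were 7, and 2 of 8 passed, all lower. In that average 3 of 9 alveolar type 2 and 2 of 6 type 1 markers also passed as lower, against 13.3% of all tested genes. For 4 club and ciliated markers the mean level was 8.46 and 6.75 in PGC-1alpha metastases under phenformin and PBS, against 8.65 and 8.94 in control metastases, and 0 of 4 passed (3 at an unadjusted p under 0.05 under PBS). For 5 cardiac muscle markers (pulmonary vein) the levels were 6.67 to 7.47 and 6.56 to 7.14 in PGC-1alpha metastases. In control metastases they were 6.52 to 8.63 under phenformin, with a group mean of 7.07, and 6.62 to 7.13 under PBS. Under phenformin 1 of the 5 passed, as higher in PGC-1alpha metastases, against 10.0% of all tested genes. The 11 epithelial markers, which are not specific to tumour cells, lay at 8.49 to 9.10 and 8.49 to 8.80 in PGC-1alpha metastases. In control metastases they lay at 8.73 to 8.95 and 8.72 to 8.97. Averaged over treatments 3 of 11 epithelial markers passed, all lower, against the same 13.3% of all tested genes. In that average 2 of 6 T and NK markers passed as lower. Other lists held a marker that passed as higher in the average, 1 of 7 for macrophages and 1 of 7 for fibroblasts and smooth muscle, against 11.3% of all tested genes. Under PBS 1 of 7 macrophage markers passed as higher, against 1.21%. Under phenformin 1 of 6 T and NK markers passed as higher and 1 as lower, against 10.0% and 11.1%. With the lung marker score as a covariate, the Sucla2 difference under phenformin was 0.56 (limma adjusted p = 0.0321) and that of Suclg2 0.46 (adjusted p = 0.0425). The part of neutrophils, macrophages, T and NK cells, fibroblasts, airway cells, cardiac muscle and the epithelial share in the enzyme results was not tested.

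Under PBS the lines were compared in the same way. Of the 10 members, 1 passed, Mdh2, against 2.93% of all tested genes (1.21% higher and 1.72% lower). At an unadjusted p under 0.05 there were 3 members, against 18.0% of all tested genes. Mdh2 had log2 signals of 10.13, 10.22 and 10.38 (lowest, median and highest) in PGC-1alpha metastases, against 9.95, 9.76, 10.00, 9.99 and 9.49 in control metastases. All 6 PGC-1alpha arrays stood above all 5 control arrays, which 1.65% of all tested genes did in this direction. The difference was 0.40 (SE 0.11, 95% interval 0.18 to 0.62, limma adjusted p = 0.0419). The call was lost when only the PBS groups were fitted (0.40, adjusted p = 0.111), with the replicate number as a block (0.40, adjusted p = 0.0782), without the 4 arrays of lowest weight (0.32, adjusted p = 0.158), with the lung marker score as a covariate (0.29, adjusted p = 0.377) and without any 1 of 7 arrays (0.31 to 0.44 over all 22 omissions, largest adjusted p 0.124). Those 7 were PGC1a_PBS 1, 2, 3, 5 and 6 and control_PBS 2 and 5.

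The ligase subunits kept a positive difference under PBS without passing. Sucla2 had 5.83, 6.09 and 6.63 in PGC-1alpha metastases under PBS, against 5.55, 5.99, 5.90, 5.95 and 5.95 in control metastases, a difference of 0.28 (SE 0.15, limma adjusted p = 0.322). PGC1a_PBS 1, 2 and 3 stood above the control range and the other PGC-1alpha arrays within it. Suclg2 had 6.91, 7.41 and 7.65 in PGC-1alpha metastases, against 7.14, 7.18, 7.11, 7.40 and 7.25 in control metastases (0.17, SE 0.13, limma adjusted p = 0.54). PGC1a_PBS 6 was the lowest of these 11 arrays. Suclg1 averaged 8.65 ± 0.09 in PGC-1alpha and 8.52 ± 0.37 in control metastases, with a 95% interval of the difference from -0.22 to 0.49.

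Idh3a and Pcx had the lowest differences under PBS. Idh3a had 7.99, 8.29 and 8.85 in PGC-1alpha metastases, against 8.71, 8.68, 8.62, 8.70 and 8.70 in control metastases. Among the PGC-1alpha arrays, PGC1a_PBS 6 at 8.85 stood above all control arrays and the other 5 below them. The Idh3a difference of -0.32 (SE 0.14, limma adjusted p = 0.221) and the Pcx difference of -0.29 (SE 0.14, limma adjusted p = 0.26) did not pass. Cs differed by 0.12, Idh2 by -0.15, Idh3b by -0.06 and Ogdh by 0.00, with 95% intervals from -0.07 to 0.31, from -0.44 to 0.13, from -0.30 to 0.18 and from -0.23 to 0.24.

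Averaged over both treatments, 4 of 10 members passed, 3 higher and 1 lower in PGC-1alpha metastases, where 24.6% of all tested genes passed, 11.3% higher and 13.3% lower. At an unadjusted p under 0.05 there were 5 members, against 39.0% of all tested genes. Sucla2 was higher by 0.42 (SE 0.10, limma adjusted p = 0.00601), Suclg2 by 0.34 (SE 0.09, adjusted p = 0.0108) and Mdh2 by 0.26 (SE 0.08, adjusted p = 0.0152). Idh3a was the member that fell, by 0.29 on the log2 scale (0.818-fold, SE 0.10, limma adjusted p = 0.0326). That call was lost without any 1 of 8 arrays (PGC1a_phenformin 2, 3 and 6, PGC1a_PBS 1, 2 and 3, control_phenformin 1 and 5; largest adjusted p 0.0605) and after cyclic loess or quantile normalisation again (-0.22 and -0.19). Cs, at 0.17 (SE 0.06, limma adjusted p = 0.0628), did not pass. With the lung marker score as a covariate none of the 4 passed: Sucla2 was at 0.41 (limma adjusted p = 0.0587), Suclg2 at 0.27 (0.152), Mdh2 at 0.16 (0.273) and Idh3a at -0.20 (0.309). Without the same 4 arrays of lowest weight, Sucla2 alone passed.

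The start regions of the 3 members that passed within a treatment are given as a description. Whether PGC-1alpha acts through them was not tested. They are RefSeq sequences of mouse assembly GRCm38.p6, 5′ to 3′ on the gene's strand, from 250 bases before to 50 bases after the annotated start. The Sucla2 window is chr14:73552536-73552835 on the plus strand, the Suclg2 window chr6:95718797-95719096 on the minus strand and the Mdh2 window chr5:135778399-135778698 on the plus strand. Capitals mark matches, on either strand, to 6 short motifs: AAGGTCA (estrogen-related receptor half-site), GCGC, any base, TGCGC (NRF1), CCGGAAG (GABP, an ETS site), GGGCGG (GC box), ATGGCG (YY1 core) and the palindromic CGCG element, which is TCTCG followed by its reverse complement.
Sucla2: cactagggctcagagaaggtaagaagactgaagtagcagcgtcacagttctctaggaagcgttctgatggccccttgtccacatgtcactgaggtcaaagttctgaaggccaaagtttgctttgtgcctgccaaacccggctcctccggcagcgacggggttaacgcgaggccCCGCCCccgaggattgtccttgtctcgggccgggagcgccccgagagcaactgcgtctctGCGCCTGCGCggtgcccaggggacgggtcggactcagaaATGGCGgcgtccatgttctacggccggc
Suclg2: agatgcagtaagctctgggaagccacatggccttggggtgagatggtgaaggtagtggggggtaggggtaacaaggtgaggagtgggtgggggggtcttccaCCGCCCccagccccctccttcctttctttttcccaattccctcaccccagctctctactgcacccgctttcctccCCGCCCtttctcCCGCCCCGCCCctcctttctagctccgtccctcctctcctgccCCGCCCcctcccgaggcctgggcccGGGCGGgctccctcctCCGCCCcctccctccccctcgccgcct
Mdh2: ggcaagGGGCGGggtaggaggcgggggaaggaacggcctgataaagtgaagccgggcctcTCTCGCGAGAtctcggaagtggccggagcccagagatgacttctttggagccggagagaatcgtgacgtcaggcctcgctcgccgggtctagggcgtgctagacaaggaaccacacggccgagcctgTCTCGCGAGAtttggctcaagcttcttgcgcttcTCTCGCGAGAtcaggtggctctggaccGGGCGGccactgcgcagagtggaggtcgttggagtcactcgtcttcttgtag

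The Sucla2 window held 1 NRF1 match at position -17 from the start, 1 GC box and 1 YY1 core, and 4.6% of 32851 mouse promoter windows of this length held an NRF1 match. The Suclg2 window held 7 GC boxes, a neighbouring pair of which share a base, and no match to the other motifs. GC boxes stood in 35.7% of all windows and in 10 of the 15 windows of members. Those windows belong to 7 of the 9 members with an entry. The Mdh2 window held 2 GC boxes and 3 copies of the CGCG element, at -190, -63 and -29. At least 1 copy stood in 0.466% of all windows and at least 3 in 2 windows. GC content was 62.0% for Sucla2, 67.7% for Suclg2 and 62.7% for Mdh2, against a median of 52.7% over all windows. The half-site of the estrogen-related receptors was found in a window of Ogdh (4.72% of all windows) and the GABP motif in that of Idh3b (8.86%). The GC box, YY1 and CGCG motifs and the looser NRF1 pattern were chosen after the windows were seen. A match describes letters and is no sign of binding.

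The effect of phenformin was examined next, within each line. No member passed in PGC-1alpha metastases (0 of 10) or in control metastases (0 of 10), and the share that passed was 0% of all tested genes in both. At an unadjusted p under 0.05 from limma there was 1 member in each line, against 4.34% of all tested genes in PGC-1alpha and 9.64% in control metastases. The median log2 difference of the members was -0.01 in PGC-1alpha and -0.14 in control metastases.

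Pcx was that member in both lines, with opposite signs. In PGC-1alpha metastases its log2 signals were 6.11, 6.39 and 7.09 (lowest, median and highest) under phenformin, against 5.95, 6.24 and 6.43 under PBS, a difference of 0.27 (95% interval 0.00 to 0.53, limma adjusted p = 0.957). In control metastases they were 6.14, 6.28, 6.13, 6.01 and 6.38 under phenformin, against 6.49, 6.64, 6.36, 6.49 and 6.54 under PBS, a difference of -0.32 (95% interval -0.61 to -0.03, limma adjusted p = 0.476). In control metastases the treatments overlapped only through control_phenformin 5 and control_PBS 3. The difference between the 2 lines in the response, the interaction, was 0.58 (SE 0.19, 95% interval 0.19 to 0.98, limma unadjusted p = 0.00545, adjusted p = 0.321) and did not pass.

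Idh3a was lower under phenformin in all control arrays. It had 8.58, 8.47, 8.43, 8.19 and 8.51 under phenformin, against 8.71, 8.68, 8.62, 8.70 and 8.70 under PBS in control metastases. The treatments did not overlap, as for 0.746% of all tested genes in this direction, yet the difference of -0.25 had an adjusted p of 0.587 (limma). In PGC-1alpha metastases it had 7.94, 8.09 and 8.58 under phenformin, against 7.99, 8.29 and 8.85 under PBS, with overlap (-0.19, limma adjusted p = 0.957).

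Mdh2 was the member with the highest positive difference in control metastases. It had 10.06, 10.14, 9.86, 10.25 and 9.98 under phenformin, against 9.95, 9.76, 10.00, 9.99 and 9.49 under PBS (0.22, 95% interval -0.01 to 0.45, limma adjusted p = 0.529). In PGC-1alpha metastases its difference was -0.06 (95% interval -0.27 to 0.15). The differences of Cs, Idh2, Idh3b, Ogdh, Sucla2, Suclg1 and Suclg2 lay between -0.21 and 0.06 in control metastases and between -0.05 and 0.19 in PGC-1alpha metastases.

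**Figure D4:**
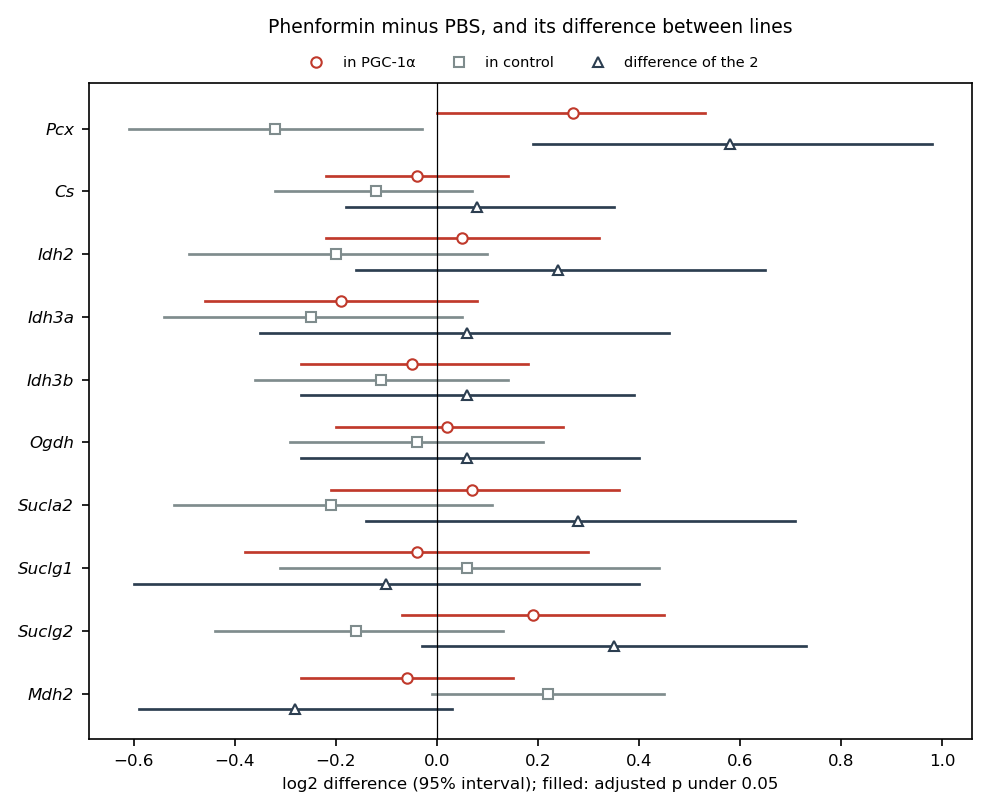
Log2 difference between phenformin and PBS (horizontal axis) in PGC-1alpha metastases (circles) and control metastases (squares), and the difference of those 2 responses (triangles), with 95% intervals. No symbol is filled, since no adjusted p was under 0.05. The interaction interval excludes 0 for Pcx alone (0.19 to 0.98).

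Whether the line difference depended on treatment was tested by the same interaction. It passed for 0 of 10 members and for 0% of all tested genes, with 11.1% of genes at an unadjusted p under 0.05 and 1 member, Pcx. For Suclg2 it was 0.35 (95% interval -0.03 to 0.73, limma adjusted p = 0.484), for Sucla2 0.28 (-0.14 to 0.71, adjusted p = 0.614) and for Mdh2 -0.28 (-0.59 to 0.03, adjusted p = 0.483). That Sucla2 and Suclg2 passed under phenformin and Mdh2 under PBS is therefore not shown to be a difference between treatments.

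Across the 4 groups, the enzymes fell into different orders. Sucla2 and Suclg2 shared 1 order, from PGC-1alpha under phenformin through PGC-1alpha under PBS and control under PBS to control under phenformin, with group means spanning 0.56 and 0.52 log2 units. Neighbouring means in that order lay 0.07, 0.28 and 0.21 apart for Sucla2 (SD within groups 0.24), and 0.19, 0.17 and 0.16 apart for Suclg2 (SD 0.21), so that only the Sucla2 step from PGC-1alpha to control under PBS exceeded the SD. Idh3a ran from control under PBS (8.68 ± 0.04, n = 5) through control under phenformin (8.44 ± 0.15, n = 5) and PGC-1alpha under PBS (8.36 ± 0.30, n = 6) to PGC-1alpha under phenformin (8.17 ± 0.26, n = 6). Cs and Mdh2 were highest in PGC-1alpha under PBS, at 9.17 ± 0.11 and 10.24 ± 0.11 (n = 6), followed by PGC-1alpha under phenformin. Means of Ogdh spanned 0.07, those of Idh3b 0.11 and those of Suclg1 0.13 log2 units, less than their SDs within groups of 0.17, 0.17 and 0.30.

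Correlations among the members themselves were mostly weak. Over the 45 pairs of members, Pearson's r of log2 signal across 22 arrays had a median of 0.13 and ran from -0.64 to 0.67, and 30 pairs were positive. The highest was Cs with Sucla2 (0.67), and the lowest Idh3a with Suclg2 (-0.64). With group means removed the median was 0.04. All these points share the arrays, their normalisation and the 4 groups, so the values are descriptive. Of single genes over the same 22 arrays, Sucla2 was most like Fubp3 (r = 0.93), Mdh2 most like Cenpt (0.91), Suclg2 most like Asphd1 (0.83), Cs most like Chd3 (0.84) and Idh3a most like Psma4 (0.80). Idh2 was most like Sec61b (0.89), Suclg1 most like Cops6 (0.87), Ogdh most like Rab11b (0.81), Pcx most like Calml3 (0.79) and Idh3b most like Ucn3 (0.68).

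Members were also set against Ppargc1a within groups. The correlation of deviations from group means over 22 arrays passed for 0 of 10 members after adjustment over the 10 relations. The most negative was that of Ogdh (Pearson's r = -0.54, permutation p = 0.0385, adjusted p = 0.385; Spearman's rho = -0.47, permutation p = 0.052), with r = -0.48 without the 2 arrays farthest from the median of Ppargc1a, PGC1a_phenformin 2 and 6. Without PGC1a_phenformin 5 it was -0.70 (permutation adjusted p = 0.029). For Sucla2, Suclg2 and Mdh2 r was -0.04, -0.02 and 0.19 (permutation adjusted p = 0.931, 0.933 and 0.861).

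The other enzymes of the cycle were counted in the same way. Of 12 other cycle enzymes tested, 0 were higher and 4 lower under phenformin in PGC-1alpha metastases, with a median log2 difference of -0.20, against 10.0% higher and 11.1% lower over all tested genes. From the lowest to the highest quintile of mean signal, 2.57%, 5.69%, 12.2%, 18.9% and 16% of genes passed as lower. The 4 were Sdha, Sdhb and Sdhd of succinate dehydrogenase, which takes up the succinate that the ligase releases, and Dld, the lipoamide dehydrogenase shared with the pyruvate dehydrogenase complex. Sdhb had 9.45, 9.53 and 9.80 (lowest, median and highest) in PGC-1alpha metastases under phenformin, against 9.83, 10.02 and 10.58 in control metastases, without overlap (-0.56, SE 0.14, limma adjusted p = 0.00914). Sdhb also fell under PBS, by 0.54 on the log2 scale (SE 0.14, limma adjusted p = 0.0365), the 1 of 12 that passed there. That call was lost with array weights (adjusted p = 0.0579), after cyclic loess (0.0529) or quantile normalisation again (0.0589), with only the groups compared (0.066), with the lung marker score (0.19), without the 4 arrays of lowest weight (0.18) and without any 1 of 7 arrays (PGC1a_PBS 1, 2, 3 and 4, control_PBS 1, 2 and 5; largest adjusted p 0.103). Sdhd fell by 0.53 (SE 0.14, adjusted p = 0.0125), Sdha by 0.55 (SE 0.18, adjusted p = 0.0369) and Dld by 0.62 (SE 0.17, adjusted p = 0.0157) under phenformin, each without overlap between the lines (limma), as for 4.94% of all tested genes in this direction. With the lung marker score as a covariate these 3 did not pass: Sdhd was at -0.43 (adjusted p = 0.0591), Sdha at -0.51 (0.0951) and Dld at -0.48 (0.0777). Sdha was also lost after quantile normalisation again (-0.49, adjusted p = 0.057), without the 4 arrays of lowest weight (-0.48, adjusted p = 0.0833) and without any 1 of 6 arrays (PGC1a_phenformin 1, 2 and 6, control_phenformin 2, 4 and 5).

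Routes into and out of the cycle were counted last. Of 24 genes tested, 2 were higher and 3 lower in PGC-1alpha metastases under phenformin, and 0 passed under PBS, so the share under phenformin was close to the 21.1% of all tested genes (10.0% higher and 11.1% lower). Pck2, the mitochondrial phosphoenolpyruvate carboxykinase that drains oxaloacetate, was higher by 0.55 (SE 0.14, limma adjusted p = 0.00931) and Me3, a mitochondrial malic enzyme, by 0.56 (SE 0.14, adjusted p = 0.011). Pdhx, the E3-binding subunit of pyruvate dehydrogenase, fell by 0.54 (SE 0.13, adjusted p = 0.00801), Pdk3, a kinase that inactivates it, by 0.68 (SE 0.17, adjusted p = 0.0103) and the citrate carrier Slc25a1 by 0.30 (SE 0.10, adjusted p = 0.0369). Slc25a1 lost its call after cyclic loess (-0.20, adjusted p = 0.182) or quantile normalisation again (-0.22, adjusted p = 0.143), with only the groups compared (adjusted p = 0.0686), without the 4 arrays of lowest weight (adjusted p = 0.0925) and without any 1 of 8 arrays (PGC1a_phenformin 1, 4 and 5 and each of the 5 control_phenformin arrays). Pck2 lost it with the lung marker score (0.39, adjusted p = 0.0523), and Me3 after cyclic loess (0.41, adjusted p = 0.053) and without the 4 arrays (0.43, adjusted p = 0.0546). Averaged over treatments 6 route genes were higher and 3 lower, where 24.6% of all tested genes passed, among them the citrate-cleaving enzyme Acly (0.27, SE 0.06, limma adjusted p = 0.00341) and the mitochondrial aspartate aminotransferase Got2 (0.29, SE 0.08, adjusted p = 0.0113). The dicarboxylate carrier Slc25a10 fell by 0.29 (SE 0.10, limma adjusted p = 0.0332), a call lost under 6 alternatives (-0.32 to -0.16, adjusted p 0.0712 to 0.265) and without any 1 of 5 arrays (PGC1a_phenformin 6, PGC1a_PBS 2, control_phenformin 2 and 4, control_PBS 1). The Got2 call was lost with the lung marker score (adjusted p = 0.0913) and without the 4 arrays of lowest weight (0.0729).

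**Figure D5:**
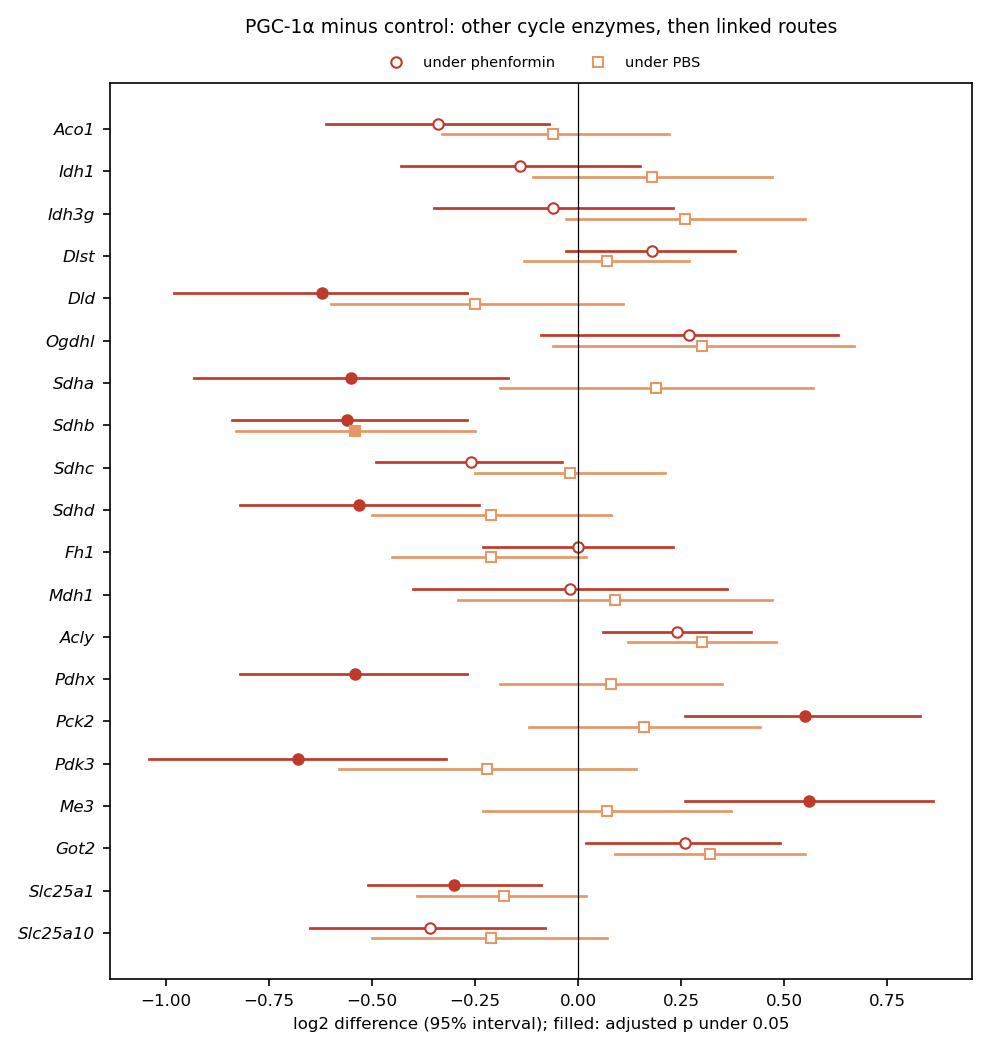
Log2 difference between PGC-1alpha and control metastases (horizontal axis) for 12 other cycle enzymes and for the 8 genes of linked routes with the smallest adjusted p, under phenformin (circles) and PBS (squares), with 95% intervals. Filled symbols mark an adjusted p under 0.05. All filled cycle enzymes lie left of 0, Sdhb under both treatments.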

How the data were processed

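Deposited values were log2 array signals, 1 per probe set and array, already normalised by the authors. The authors used oligo, per the submitters' processing notes; its version, the background correction and the normalisation are not given in the sources used here. Of 28815 probe sets, 6609 were controls and 19572 carried 1 gene symbol, for 19505 genes. The filter kept 15545 genes whose signal exceeded the 25th percentile of the array in 5 or more arrays. A further deposited table was not used, because its 22 columns match no sample name. No arrays held identical values.

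All 4 groups were fitted together in limma 3.58.1 (R 4.3.3, 18 residual and 5.67 prior degrees of freedom, two-sided tests, Benjamini-Hochberg over all tested genes, threshold 0.05), with 6 contrasts and no block. The fit was tested on simulated data. The exact permutation tests of the ligase subunits used SciPy 1.17.1. Permutation tests of the correlations were coded directly, with 100000 resamples within groups. Figures were drawn with matplotlib 3.10.9 in Python 3.11.15. The named genes are the 10 members, other cycle enzymes that passed in a contrast, the 8 route genes with the smallest adjusted p, the gene most correlated with each member, and Ppargc1a and Erbb2. Members and lists were chosen with earlier results of these data known. Promoters matched by symbol for 9 of 10 members (all but Idh3a). Alternatives changed the filter, scaling, samples, variance prior, weights, replicate block, a lung marker covariate and each array in turn.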

Additional observations from a re-analysis of the deposited data

Results flagged for a closer look

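Of 40 sets of values (10 members in 4 groups), 2 held an array far from the rest of its group, where chance gives about 1 in 20. Sucla2 was 5.55 in control_PBS 1, and the nearest of the other 4 control arrays under PBS was 5.90, a gap of 0.8 of the group's range. Idh3a was 8.62 in control_PBS 3 and 8.68 in the nearest array, a gap of 0.721 of the range. In the Idh3a group the whole range was narrow (8.62 to 8.71), so the array stands apart only relative to an SD of 0.04.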

How the results depend on the processing

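Under phenformin the count of members higher or lower by line was 2 in the reported fit, 2 without any single array, 3 after quantile or cyclic loess normalisation again, and 1 without the 4 arrays of lowest weight, an alternative chosen after seeing the data. Under PBS the count of 1 became 0 with the lung marker covariate, with only the groups compared, with the replicate block (Mdh2 0.40, adjusted p = 0.0782) and without those 4 arrays, and ranged from 0 to 1 over leaving out single arrays. Averaged over treatments the count of 4 became 0 with the lung marker covariate and 1 without those 4 arrays, and ranged from 3 to 5 over leaving out single arrays. Idh3a, averaged, did not pass after cyclic loess (-0.22, adjusted p = 0.0804) or quantile normalisation again (-0.19, adjusted p = 0.136). The correlation of Ogdh with Ppargc1a ranged from -0.70 to -0.41 over leaving out single arrays. The other 3 contrasts gave 0 members in every setting run. The causes were not tested. No sign of a called value turned. Over all genes, 455 passed under PBS and 51 with the lung covariate, 86 without the 4 arrays and 237 with only the groups compared. Under phenformin 3283 passed, 1783 with the lung covariate, and averaged over treatments 3831 and 1112.

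No label pairs samples of equal replicate number, and the numbers did not meet the level set for pairing (every pair above 0.1): 7 of 31 same-number pairs correlated above 0.1, with a median of 0.01 against 0 for different numbers, and 9 of 22 arrays correlated best with their own number, a hint from the data and not from the design. The replicate block changed no other call of a member. Averaging a gene's probe sets was not run, since each member has 1, and fitting only the groups compared gives no interaction or average. Depth has no counterpart here: signal over the negative controls limits Sucla2 and Pcx most, at 1.20 and 1.56 log2 units on average.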
